A study of Mus musculus with 12 samples.

Results

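Plac8, Calml4, Ltb, Adam19, Rarg, Tcea3 and Hmces are 7 genes of mouse embryonic stem (ES) cells whose array signal was lower after a low dose of hydrogen peroxide (H2O2) than in untreated cells or than after a high dose. They were chosen by their measured signals, on that pattern, so the drop at the low dose and the higher level at the high dose are given as a description, without a test. Each of the 7 is measured by 1 probe set, out of 10833 probe sets that name a single gene and stand for 8251 genes. What other genes of the same pathways did was not set by the choice. The comparison of the high dose with untreated cells was not itself the rule, but the signals of both groups entered the choice. Its p-values for the 7 genes are therefore not independent of the choice.

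The cells were E14tg2a mouse ES cells of 1 clone (C2), which carry targeted sites for the rare-cutting nuclease I-SceI in all groups, the untreated one included. RNA was hybridised to 12 Affymetrix MG_U74Av2 arrays. Untreated cells were kept in phosphate-buffered saline (PBS, n = 3). The low dose was 100 µM H2O2 for 15 min (n = 4), and the high dose was 5 mM H2O2 for 30 min (n = 5), both given in PBS and followed by 1 h of recovery in maintenance medium before RNA extraction. Concentration and exposure time changed together and cannot be told apart. The sample labels of the PBS arrays name no recovery time. No label says whether arrays of a group came from separate cultures, so errors and p-values describe the scatter of these samples alone, and that scatter may be technical.

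H2O2 enters cells and oxidises bases in DNA, cysteines in proteins and free iron. ES cells meet it with catalase and peroxiredoxins, DNA repair and changes in transcription, and a steady-state RNA level measured after an hour reflects both synthesis and decay. The 7 genes have no single pathway in common. Ltb encodes lymphotoxin beta, a membrane-bound ligand of the tumour necrosis factor family that pairs with lymphotoxin alpha and signals through the lymphotoxin beta receptor to NF-kB. Rarg encodes a nuclear receptor that binds retinoic acid and acts with a retinoid X receptor partner on DNA. Adam19 is a membrane-anchored metalloprotease that cuts the outer parts off other membrane proteins, neuregulin among them. Calml4 is a calmodulin-like protein with EF-hands, known as a myosin light chain of the intestinal brush border. Tcea3 is a tissue-restricted form of TFIIS, the factor that restarts stalled RNA polymerase II. Hmces attaches itself to abasic sites in single-stranded DNA and shields them during replication. Plac8 is a small cysteine-rich protein first known from placenta.

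Promoters of the 7 genes were read to show what sequence lies at the start sites of genes whose signals moved together. RefSeq (build GRCm38.p6) gave 11 start-site windows for the 7 genes, which lie on 7 chromosomes. Each window runs from 250 bases before to 50 bases after the start, 5′ to 3′ on the gene's own strand. Shown are the windows of the 4 genes with a single start, and the first window of Plac8 and of Rarg. Capitals mark CCAAT (the CCAAT box), the GC box GGGCGG, the classical NF-kB site (the capitals in Ltb), TGACGT (a CRE half-site) and AGGTCA (a nuclear receptor half-site), on either strand.
Plac8: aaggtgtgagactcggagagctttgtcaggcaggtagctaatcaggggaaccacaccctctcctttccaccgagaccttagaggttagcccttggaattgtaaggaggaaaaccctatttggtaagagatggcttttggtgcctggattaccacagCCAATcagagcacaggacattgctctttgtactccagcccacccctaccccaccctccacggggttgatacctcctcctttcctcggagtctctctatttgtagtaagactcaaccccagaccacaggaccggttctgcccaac
Calml4: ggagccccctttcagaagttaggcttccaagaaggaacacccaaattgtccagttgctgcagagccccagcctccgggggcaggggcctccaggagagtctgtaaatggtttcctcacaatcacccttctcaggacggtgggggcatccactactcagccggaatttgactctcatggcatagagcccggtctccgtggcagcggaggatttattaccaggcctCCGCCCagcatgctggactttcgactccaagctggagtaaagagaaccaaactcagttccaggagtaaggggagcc
Ltb: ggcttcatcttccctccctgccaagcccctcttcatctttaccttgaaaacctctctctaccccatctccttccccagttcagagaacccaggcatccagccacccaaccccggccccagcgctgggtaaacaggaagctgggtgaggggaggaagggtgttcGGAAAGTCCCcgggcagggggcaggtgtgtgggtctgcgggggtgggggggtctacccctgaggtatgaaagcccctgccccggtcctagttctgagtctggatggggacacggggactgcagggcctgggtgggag
Rarg: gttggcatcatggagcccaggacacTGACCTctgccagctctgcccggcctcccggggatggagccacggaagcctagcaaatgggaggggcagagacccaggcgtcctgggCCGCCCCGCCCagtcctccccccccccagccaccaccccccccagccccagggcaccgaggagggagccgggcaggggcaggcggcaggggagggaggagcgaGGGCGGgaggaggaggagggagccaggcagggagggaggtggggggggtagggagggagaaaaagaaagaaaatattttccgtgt
Tcea3: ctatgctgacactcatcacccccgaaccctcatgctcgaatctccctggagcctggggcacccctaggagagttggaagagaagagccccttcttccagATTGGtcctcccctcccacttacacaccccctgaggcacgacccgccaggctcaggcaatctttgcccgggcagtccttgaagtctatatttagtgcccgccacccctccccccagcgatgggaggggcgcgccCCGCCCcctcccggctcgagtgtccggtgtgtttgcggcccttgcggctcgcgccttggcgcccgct
Hmces: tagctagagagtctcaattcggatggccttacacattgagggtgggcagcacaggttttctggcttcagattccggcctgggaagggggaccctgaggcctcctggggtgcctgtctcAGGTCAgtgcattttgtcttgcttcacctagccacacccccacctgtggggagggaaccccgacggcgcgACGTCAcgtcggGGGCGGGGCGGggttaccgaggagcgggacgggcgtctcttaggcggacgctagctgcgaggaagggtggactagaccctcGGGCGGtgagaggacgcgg
The Plac8 window is chr5:100572156-100572455 (minus strand), Calml4 chr9:62857854-62858153 (plus), Ltb chr17:35194257-35194556 (plus), Rarg chr15:102257473-102257772 (minus), Tcea3 chr4:136247707-136248006 (plus) and Hmces chr6:87913726-87914025 (plus). The windows shared no motif searched. The GC box was found in 5 of the 11 windows and in 35.7% of 32851 mouse promoter windows, and CCAAT in 4 of 11 and 37.4%. TATAAA was found in none of the 11 windows and in 13.6% of all. Ltb carried the NF-kB letters on the minus strand at -87, a match held by 51 windows of the whole set (0.155%). The half-site AGGTCA, which retinoid receptors and other nuclear receptors bind, was found in the printed windows of Rarg and Hmces and in 2 of the 3 windows of Adam19, against 16.3% of all windows. TGACGT was found in 1 of 11 windows, that of Hmces at -62, and in 7.51% of all. There it overlaps a match to TGACNNNGC, a form of the antioxidant response element, at -65. The antioxidant letters were in 2 of 11 windows, the other being the first of Plac8, and in 12.4% of all. Of the remaining motifs, the AP-1 site (TGA and TCA around any base, 7.81% of all windows), CACGTG (the E-box, 7.15%), GAANNTTC (a heat shock element, 7.86%) and TTTGAA (CHR, 17.9%) were each in 1 of 11, and TGACGTCA (the full CRE, 1.79%) was in none. A match says only that the letters are there.

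On the arrays, the 7 genes split by where they stood at 5 mM. Plac8, Calml4 and Ltb had all 5 high-dose arrays above all PBS arrays. Adam19 and Rarg had high-dose and PBS arrays that overlapped, and Tcea3 and Hmces had all 5 high-dose arrays below all PBS arrays. In all 7 genes each of the 4 low-dose arrays was below every PBS and every high-dose array, which the choice of genes largely fixed. That arrangement held in 6.57% of the 8695 probe sets tested. Values are MAS5 signals, the authors' linear intensities, and folds given below as log2 are on the scale of log2(signal + 10.1), on which dim probe sets appear to change less than they do. Levels are compared within a gene only, since signals of different probe sets have no common scale. The samples are bulk RNA, in which fewer cells carrying a transcript and less of it per cell cannot be told apart.

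**Figure D1:**
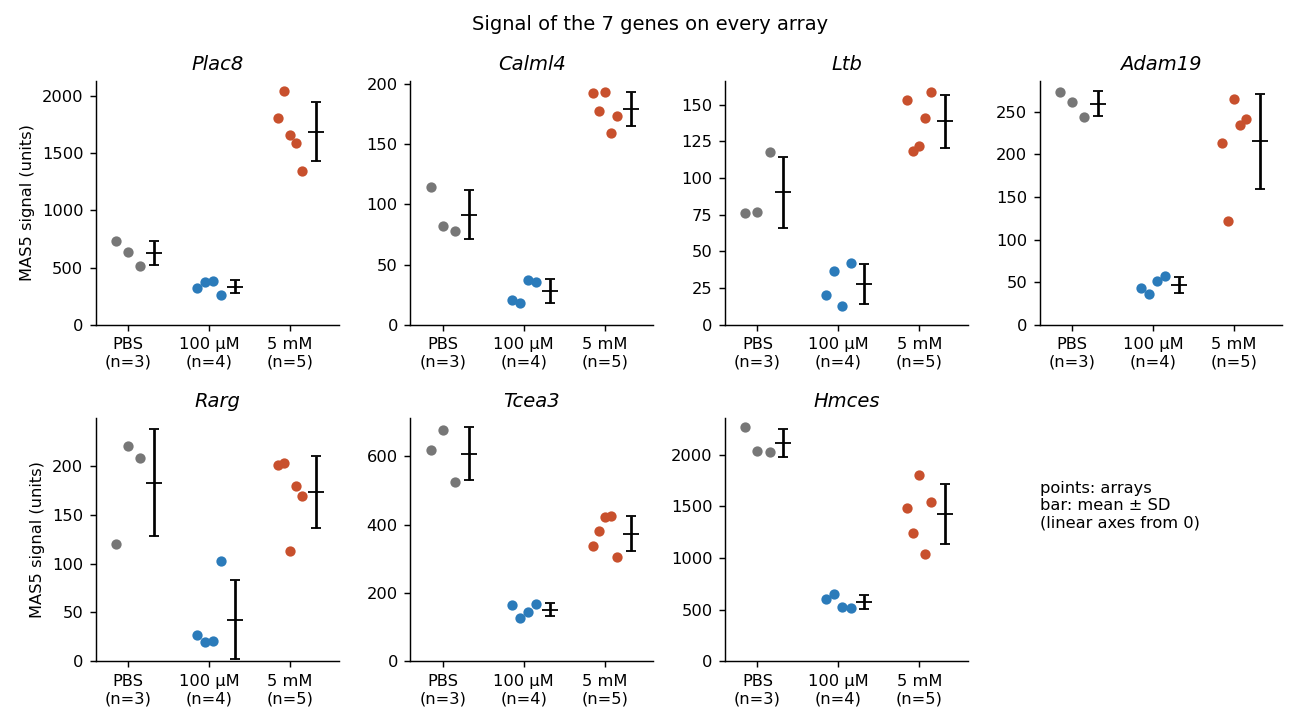
MAS5 signal (linear intensity, vertical axis from 0) of each of the 7 genes, with 1 point per array and beside them the group mean ± SD, for PBS (3 arrays), 100 µM H2O2 (4) and 5 mM H2O2 (5). In every panel the 4 low-dose points lie lowest. The high-dose points lie above PBS for Plac8, Calml4 and Ltb, overlapping the PBS range for Adam19 (where 4 of 5 lie below it) and Rarg, and between the other groups for Tcea3 and Hmces.

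Plac8 was the gene that went furthest above PBS at the high dose. Its signal was 727, 636 and 516 in PBS, 319.7, 370.2, 383 and 261 at 100 µM, and 1809, 2041, 1655, 1584 and 1344 at 5 mM. The lowest high-dose array was therefore above the highest PBS array, and the low-dose arrays made a tight group beneath both. Group means were 626 ± 106 in PBS, 333 ± 55.4 at 100 µM and 1686 ± 260 at 5 mM (SD, n = 3, 4 and 5), so the signal was 53.2% of the PBS mean at 100 µM and 269% of it at 5 mM. Against PBS the high-dose log2 change was 1.41 ± 0.16 (SE, 95% interval 1.08 to 1.75), a 2.67-fold rise with an adjusted p of 2.6e-05 in limma. A high signal at 5 mM could by itself bring a gene into the choice, so this p is not independent of it. The low-dose change was -0.89 ± 0.17 and the distance between the doses 2.31 ± 0.15. Of the 7 genes Plac8 had the smallest low-dose difference from PBS.

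Calml4 followed the same order of groups. It gave 115, 81.8 and 78.1 in PBS, 20.3, 17.9, 37.0 and 35.7 at 100 µM, and 192, 177, 194, 159 and 173 at 5 mM. The high-dose arrays were close to each other and all above PBS. Means were 91.5 ± 20.1, 27.7 ± 10.0 and 179 ± 14.2 (SD, in PBS, 100 µM and 5 mM), or 30.3% of PBS at 100 µM and 196% at 5 mM. Calml4 rose at the high dose by a log2 change of 0.91 ± 0.21 against PBS (95% interval 0.46 to 1.36, 1.88-fold, limma adjusted p 0.0119). That call rested on the PBS arrays. Without PBS replicate 2 the change was 0.85 (adjusted p 0.0619), and without PBS replicate 3 it was 0.82 (0.0609). The low-dose change was -1.45 ± 0.22 and that between the doses 2.36 ± 0.20. With low-dose signals only a few times the 10.1 offset, the fitted size of these moved with it, between -1.78 and -0.96 at the low dose and between 1.70 and 2.76 between doses.

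Ltb, the TNF-family ligand, had the same order of group means. Its signal was 76.2, 76.6 and 118 in PBS, 20.4, 36.6, 12.6 and 41.9 at 100 µM, and 153, 118, 122, 141 and 159 at 5 mM. The lowest high-dose array, at 118.445, and the highest PBS array, at 118.055, were nearly equal, so the groups did not overlap but had almost no gap. Means were 90.3 ± 24.1 in PBS, 27.9 ± 13.7 at 100 µM and 139 ± 18.2 at 5 mM (SD), which put the low dose at 30.9% and the high dose at 154% of PBS. Against PBS the high-dose log2 value was 0.59 ± 0.26 (95% interval 0.03 to 1.14), which did not pass the test (limma adjusted p 0.162, unadjusted 0.0389). It passed in none of the 22 alternative settings. The low-dose change was -1.45 ± 0.27 and that between doses 2.04 ± 0.24, again with sizes that depended on the offset.

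Adam19, the metalloprotease, had the largest low-dose change of the 7 with all arrays, but not when low-dose replicate 4 was left out for Rarg. Signals were 273, 261 and 244 in PBS, 43.5, 35.8, 51.8 and 57.3 at 100 µM, and 214, 122, 265, 234 and 241 at 5 mM. The low-dose mean of 47.1 ± 9.44 was 18.2% of the PBS mean of 260 ± 14.8, and the high-dose mean of 215 ± 55.3 was 83.0% of it (SD). One high-dose array, replicate 2, stood well beneath the other 4, and 4 of the 5 lay below every PBS array. The high-dose log2 value against PBS was -0.30 ± 0.22 (95% interval -0.76 to 0.16), which did not pass the test (limma adjusted p 0.408). That interval covers values on both sides of 0. The low-dose change was -2.25 ± 0.23, and the doses differed by 1.95 ± 0.20.

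Rarg, the retinoic acid receptor gene, also stood near PBS at the high dose but varied more. PBS arrays read 120, 219.9 and 208, low-dose arrays 27.4, 19.4, 20.9 and 103, and high-dose arrays 201, 202, 113, 179 and 169. A single low-dose array, replicate 4, lay far above the other 3 and came close to the lowest PBS and high-dose arrays. Means were 182 ± 54.7 in PBS, 42.6 ± 40.3 at 100 µM and 173 ± 36.5 at 5 mM (SD), or 23.4% and 94.7% of PBS at the low and high dose. Against PBS the high-dose log2 value was -0.06 ± 0.36 (limma adjusted p 0.941), with a wide 95% interval of -0.82 to 0.71. Its sign turned when PBS replicate 2, PBS replicate 3 or high-dose replicate 3 was left out, at 0.09, 0.06 and 0.08. The low-dose change was -2.07 ± 0.38 with all arrays and -2.52 without low-dose replicate 4. That is larger than the -2.25 of Adam19 with all arrays, and than the largest Adam19 change in any of the 22 alternatives, -2.48. Between the doses the change was 2.02 ± 0.33, and 2.47 without that array.

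Tcea3, the TFIIS form, was one of the pair that stayed below PBS at 5 mM. It read 619, 677 and 525 in PBS, 165, 128, 145 and 167 at 100 µM, and 337, 381, 421, 424 and 306 at 5 mM. The 3 groups did not touch: low dose lowest, high dose in the middle and PBS highest. Means were 607 ± 77.1, 151 ± 18.5 and 374 ± 51.7 (SD, in PBS, 100 µM and 5 mM), so the low-dose signal was 24.9% and the high-dose signal 61.6% of PBS. Tcea3 fell at the high dose against PBS by 0.69 ± 0.15 on the log2 scale (95% interval -1.0 to -0.38), 1.61-fold lower with a limma adjusted p of 0.00705. The change was -0.61 without PBS replicate 2 (adjusted p 0.0534). At the low dose it was -1.94 ± 0.15, and between doses 1.25 ± 0.14. Its probe set name ends in _s_at, the maker's mark for probes that can also match related transcripts, so the signal may not be Tcea3 alone.

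Hmces, the abasic-site protein, had the same order of groups as Tcea3. PBS arrays read 2270.5, 2041 and 2030.0, low-dose arrays 601, 654, 529.8 and 513, and high-dose arrays 1483, 1247, 1803, 1043 and 1545. Again no group overlapped another. Means were 2114 ± 136 in PBS, 574 ± 65.2 at 100 µM and 1424 ± 291 at 5 mM (SD), or 27.2% and 67.4% of PBS at the low and high dose. Hmces fell by 0.59 ± 0.15 on the log2 scale at the high dose against PBS (95% interval -0.91 to -0.26), 1.5-fold lower with a limma adjusted p of 0.0219. This call was lost when any 1 PBS array was left out, with changes of -0.54, -0.61 and -0.62 and adjusted p between 0.0546 and 0.0637. The low-dose change was -1.87 ± 0.16 and the difference between doses 1.28 ± 0.14.

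**Figure D2:**
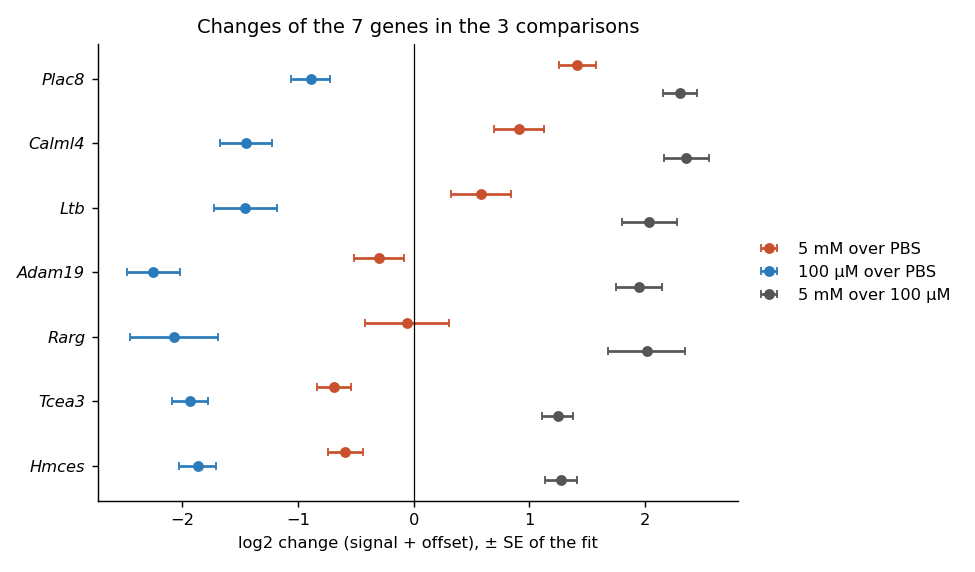
Log2 change of signal + offset (horizontal axis) of each of the 7 genes in the 3 comparisons, with bars of ± 1 SE from the limma fit over 12 arrays. The low-dose changes run from -2.25 (Adam19) to -0.89 (Plac8), and those of the high dose against PBS lie on both sides of 0, from -0.69 (Tcea3) to 1.41 (Plac8).

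For the 7 genes together, the high dose against PBS is the sum of the low-dose change and the change between doses and uses the same arrays as both, so it is not independent of the choice. In it 2 of the 7 genes rose and 2 fell, and 3 did not pass. Over all 8695 probe sets 11.7% passed, 5.68% higher and 6.03% lower. Arrays that did not overlap were found for 3 members above PBS and 2 below, while 9.61% of all probe sets stood above and 10.4% below. The median change was -0.06 over the members and 0.01 over all probe sets. In the contrasts used for the choice the median was -1.87 over the members and 0.08 over all probe sets at the low dose against PBS, and 2.02 and -0.05 between the doses. There 11.2% of all probe sets passed as lower at the low dose than in PBS, and 12.8% as higher at the high than at the low dose. With arrays set to a common median, the median of all probe sets at the low dose against PBS was -0.09 in place of 0.08, and 572 were called higher and 1498 lower in place of 1110 and 977.

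The genes also differed in how much of the low-dose gap was filled at the high dose. Set against the distance between the low-dose and PBS means of signal, the high-dose mean lay 48.8% of the way up for Tcea3, 55.2% for Hmces, 79.2% for Adam19 and 93.1% for Rarg. For Ltb it lay at 178%, for Calml4 at 238% and for Plac8 at 462%. The order of the low-dose drop was another one. As a share of the PBS mean the low-dose signal was lowest for Adam19 (18.2%), then Rarg, Tcea3 and Hmces (23.4% to 27.2%), then Calml4 and Ltb (30.3% and 30.9%), and highest for Plac8. With SDs of up to 40.3 on a Rarg mean of 42.6, neighbours from Adam19 to Ltb in this order do not differ beyond their spread. Among probe sets with the low dose below both groups on every array, those with high-dose arrays also above all PBS arrays, as in Plac8, Calml4 and Ltb, were 56 (0.644% of those tested). Those with high-dose arrays all below PBS, as in Tcea3 and Hmces, were 48 (0.552%).

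**Figure D3:**
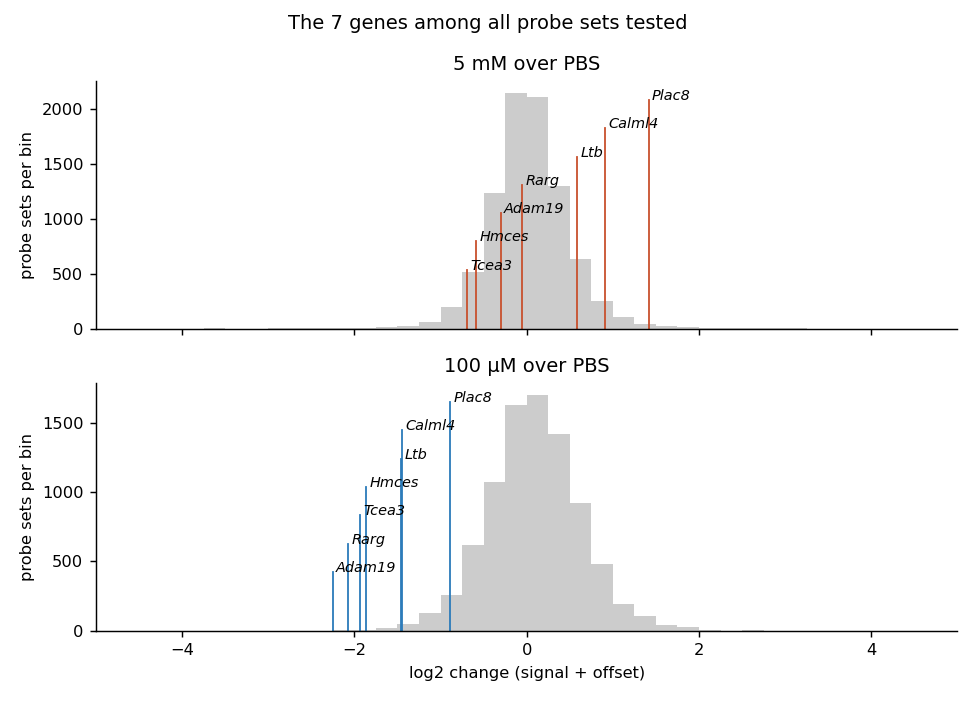
Number of probe sets per bin of log2 change of signal + offset, for the high dose against PBS (upper panel) and the low dose against PBS (lower panel), over the 8695 probe sets tested. Vertical marks give the changes of the 7 genes (their heights only space the names), which lie in the lower tail of the low-dose panel by their choice and between -0.69 and 1.41 in the high-dose panel.

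Genes working with the members were read from 7 lists. Over all 6414 genes 24.6% passed at the low dose against PBS, 11.9% higher and 12.7% lower, and 12.2% at the high dose. Of 15 retinoid genes tested, out of 34 listed and 25 on the array, 1 rose and 2 fell at the low dose against PBS, and none passed at the high dose (limma; 1 at an unadjusted p under 0.05). Under the alternative settings the low-dose counts lay between 0 and 1 higher and between 1 and 2 lower. Crabp1, a retinoic acid binding protein of the cytoplasm, was among those that fell, with 49.9 at 100 µM against 127 in PBS (log2 -1.27 ± 0.26, limma adjusted p 0.00263). It was higher by 1.24 at the high than at the low dose (adjusted p 7.7e-04), with a mean of 124 at 5 mM. The paralogue Rara averaged 84.3 in PBS, 82.1 at 100 µM and 119 at 5 mM and passed in neither comparison with PBS (adjusted p 0.921 at the low and 0.386 at the high dose). The receptor partners Rxra and Rxrb did not pass either, with low-dose log2 values of -0.24 and -0.05 and high-dose values of 0.14 and 0.16. The median of the list was -0.08 at the low and 0.14 at the high dose, beside 0.04 and -0.01 over all 6414 genes.

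The partners of Ltb had their lowest means in other groups than the low dose. Lta, which pairs with lymphotoxin beta, averaged 48.6 in PBS, 82.5 at 100 µM and 86.2 at 5 mM, with log2 values of 0.66 and 0.71 at the low and high dose that did not pass (limma adjusted p 0.0644 and 0.0668). Ltbr, the receptor, gave 64.8 in PBS, 78.4 at 100 µM and 37.1 at 5 mM. It was lower at the high than at the low dose (-0.98 ± 0.27, adjusted p 0.0127) and passed in neither comparison with PBS. Rela, a subunit of NF-kB that activates transcription, averaged 471 in PBS, 740 at 100 µM and 427 at 5 mM. It rose at the low dose against PBS (log2 0.61 ± 0.18, limma adjusted p 0.0203), a call that held in 17 of 22 alternatives. Between the doses it was lower at the high dose (-0.74, adjusted p 0.00194). Of the 18 genes tested in this list (29 listed, 22 on the array), 1 rose and 1 fell at the low dose against PBS, and 1 rose at the high dose. The last was Traf6, an adaptor that carries signals to NF-kB, at 136 in the high dose against 65.5 in PBS (log2 1.06 ± 0.24, adjusted p 0.00871). Its call was lost without PBS replicate 3. The gene that fell at the low dose, as Ltb did, was Birc2, at 225 against 335 in PBS (log2 -0.57 ± 0.16, limma adjusted p 0.0163). That call held in 21 of 22 alternatives.

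In the list around Adam19 (14 genes tested of 30 listed, 23 on the array), 4 rose and none fell at the low dose against PBS, while none rose and 2 fell at the high dose. Under the alternative settings the low-dose counts lay between 1 and 5 higher and between 0 and 2 lower, with 1 higher and 0 lower without PBS replicate 2, 2 and 0 without low-dose replicate 2, and 2 and 2 with a common median. At the low dose 8 of the 14 had an unadjusted p under 0.05, 6 of them higher. Over all 6414 genes 11.9% passed as higher and 12.7% as lower at the low dose, and 5.36% and 6.84% at the high dose. Adam10, the protease that sheds Notch and many other surface proteins, fell to 59.2 at 5 mM, against 117 in PBS (log2 -0.88 ± 0.17, adjusted p 0.00365). It averaged 141 at 100 µM and did not pass there (0.25, adjusted p 0.344). Furin, which removes the inhibitory part of ADAM proteins, was lower at the high than at the low dose (159.7 against 326, log2 -0.98, adjusted p 2.3e-05). Of the list, Adam10 and Furin thus had their highest mean at the dose at which Adam19 was lowest. Adam23, like Adam19, was higher at the high than at the low dose (333 against 233, log2 0.49 ± 0.16, limma adjusted p 0.0288). That call held in 15 of 22 alternatives. The 4 genes that rose at the low dose against PBS were Timp2, Adam3, Furin and Timp1.

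Among transcription elongation genes, the setting of Tcea3, changes at the low dose went both ways. Of 23 tested (34 listed, 23 on the array), 5 rose and 7 fell at the low dose against PBS, and 1 rose and 1 fell at the high dose. Under the alternative settings the low-dose counts ran between 2 and 5 higher and between 4 and 9 lower. Polr2i, a subunit of RNA polymerase II, fell to 229 at 100 µM, against 434 in PBS (log2 -0.89 ± 0.14, adjusted p 4.4e-04). Cdk9, the kinase of the elongation factor P-TEFb, fell to 574 at the low dose, against 1044 in PBS (-0.85 ± 0.15, adjusted p 0.00117). Nelfe, a subunit of the pausing factor NELF, fell to 450.4, against 772 in PBS (-0.81 ± 0.18, adjusted p 0.00526). Ccnt1 of the same list went the other way, to 310 at the low dose against 168 in PBS (0.92 ± 0.25, adjusted p 0.0139). Its call held in 21 of 22 alternatives. Tcea1, the widely expressed TFIIS gene, was higher than in PBS at both doses. It rose to 1875 at 100 µM, against 1381 in PBS (0.44 ± 0.10, adjusted p 0.00698), a call lost when arrays were set to a common median (0.25). At 5 mM it rose to 1779 (0.37 ± 0.10, adjusted p 0.0277), a call lost in 5 of 22 alternatives, those without PBS replicate 2 or 3 included. At the high dose Ell, a further elongation factor, fell to 238, against 396 in PBS (-0.72 ± 0.14, adjusted p 0.00381).

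Abasic-site and base excision repair is the setting of Hmces. Of 19 genes tested (31 listed, 20 on the array), none passed against PBS at the high dose, beside 12.2% of all genes (limma; 1 at an unadjusted p under 0.05), and 3 rose at the low dose. That last count lay between 0 and 3 under the alternative settings. The 3 were Ogg1, Fen1 and Pcna, with calls that held in 17, 16 and 9 of 22 alternatives. Ogg1 averaged 132 at 100 µM against 83.9 in PBS (log2 0.60 ± 0.18, limma adjusted p 0.0222). Xrcc1 had a high-dose log2 value of -0.51 that did not pass (adjusted p 0.0696) but passed in 4 of 22 alternatives. Apex1, the main enzyme that cuts at abasic sites, averaged 1808 in PBS, 1849 at 100 µM and 2057 at 5 mM and did not pass (adjusted p 0.851 at the low and 0.274 at the high dose). Ung, which makes abasic sites by removing uracil, averaged 1586, 1375 and 1350.4 and did not pass (0.309 and 0.292).

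Near Calml4 stood the calmodulin genes with their targets and the brush border genes. Of 11 calmodulin genes tested (24 listed, 17 on the array), 4 rose and 1 fell at the low dose against PBS, and 2 rose at the high dose. Under the alternatives the number that rose at the low dose lay between 1 and 4. The gene that fell was Gap43, a calmodulin-binding protein of growing axons, and it had the order of groups seen in Calml4. Gap43 averaged 49.0 in PBS, 18.6 at 100 µM and 110 at 5 mM, with a log2 change of -1.07 ± 0.26 at the low dose (adjusted p 0.00719) and 1.01 ± 0.25 at the high dose (adjusted p 0.015). The high-dose call was lost without PBS replicate 2 or 3. Marcks, an actin-linked calmodulin target, was the reverse at the low dose, with 214 at 100 µM against 109 in PBS (0.92 ± 0.18, adjusted p 0.00185). Of 6 brush border genes tested (16 listed, 7 on the array), 1 rose at the low dose, and 3 fell at the high dose against PBS. The shares over all genes were 11.9% higher at the low dose and 6.84% lower at the high dose. The gene that rose was Ezr, a linker of membrane and actin (835 at 100 µM against 651 in PBS, limma adjusted p 0.0495), which passed in 6 of 22 alternatives. Msn, another such linker, was among those that fell (265 at 5 mM against 492 in PBS, log2 -0.91 ± 0.18, adjusted p 0.0042).

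**Figure D4:**
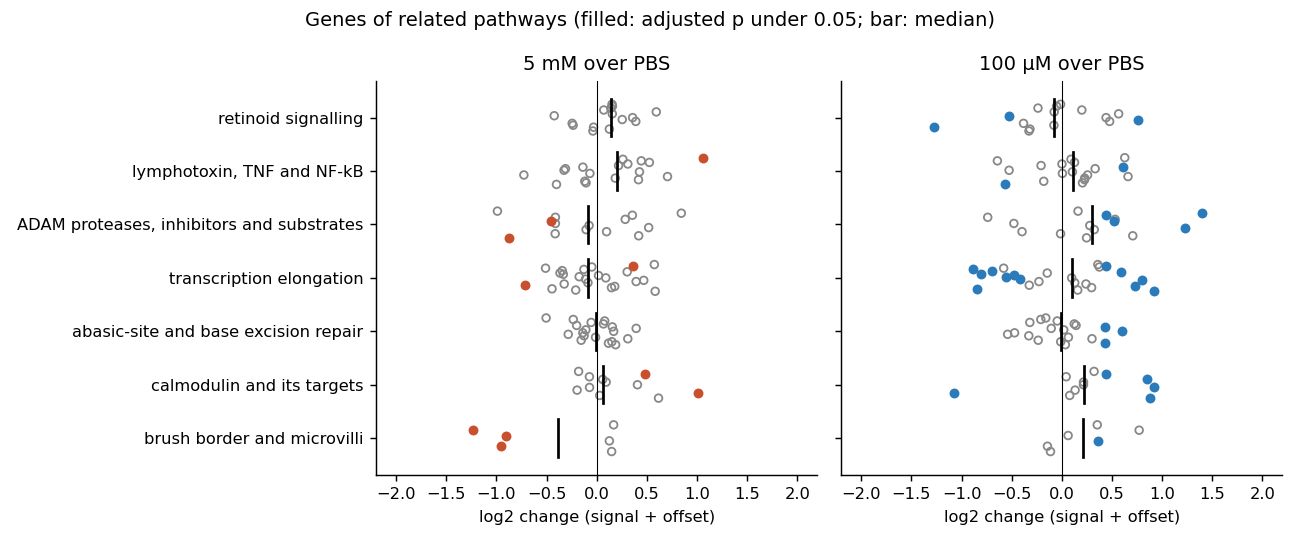
Log2 change of signal + offset of each tested gene in the 7 lists (points, filled where the limma adjusted p was under 0.05; bar at the list's median), against PBS, in 1 panel per dose. Filled points are spread on both sides of 0 in the low-dose panel, with 7 lower and 5 higher in the elongation list, and are few in the high-dose panel.

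The genes whose signal ran most like the members' were found by Pearson's r, over the 12 arrays, with the members' mean standardised log2 value. The arrays fall into the 3 dose groups and r follows their means, so it is a description. Of 7792 probe sets compared, 159 had an r above 0.9. Highest were Dusp9, a phosphatase of MAP kinases, and Cdkn1c, an inhibitor of cyclin-dependent kinases (both 0.983). Dusp9 averaged 553 in PBS, 179.5 at 100 µM and 505 at 5 mM, an order like that of Rarg and Adam19. Cdkn1c averaged 428, 42.8 and 655, a deeper low-dose drop than any member's and a high-dose mean above PBS. Next came Rex1bd (0.980), Phlda2 (0.977) and the proteasome subunit gene Psmd13 (0.975). Phlda2, an imprinted gene that limits placental growth, averaged 1178, 485 and 1404. Then followed Amz2 (0.970), Psph, an enzyme of serine synthesis (0.969), S100a10 and the clamp loader gene Rfc5 (both 0.967), and Fam50a (0.966). Under 16 other scalings, offsets and sets of arrays no r of the 10 fell below 0.957. Matched to single members, the closest were Psat1 for Plac8 (0.984), Aars for Calml4 (0.982), Faf1 for Ltb (0.951), Amz2 for Adam19 (0.967), Ankrd40 for Rarg (0.970), Mrpl40 for Tcea3 (0.969) and Nit2 for Hmces (0.975).

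The arrays carried ES cell signals in all groups. The summed signal of 13 pluripotency markers ran between 30956 and 34025 in PBS, 37249 and 42944 at 100 µM, and 35624 and 40708 at 5 mM. Dppa5a, the brightest of them, averaged 6071, 8896 and 9655. Its high-dose log2 change against PBS was 0.66, and -0.50 after quantile normalization. At the high dose 2 of the 13 rose (Dppa5a and Nanog) and 1 fell (Fgf4), beside 5.36% and 6.84% of all 6414 genes. These counts lay between 0 and 3 and between 1 and 3 under the alternative settings. At the low dose 5 of the 13 rose and 2 fell against PBS, beside 11.9% and 12.7% of all 6414 genes. The reprogramming factor Klf4 was at 3380 against 1201 in PBS and Tbx3 at 545 against 163, while Utf1 was at 1726 against 3181 and Dppa4 at 1436 against 2125. At 5 mM Utf1 averaged 2599 and Dppa4 2201, so both were lowest at the low dose, like the members. Markers of immune cells, a usual source of Ltb and Plac8, ran from dim to bright. Group means lay between 6.50 and 9.37 for Ptprc and between 1.24 and 5.91 for Lyz2. For Cd79a they lay between 82.0 and 112, and for Laptm5 between 798 and 1613. Whether such cells were present was not tested. The sum of these markers over 15 of 17 genes, mainly Laptm5, ran between 1342 and 2024, 1806 and 2450, and 1129 and 1539 in PBS, 100 µM and 5 mM. Single genes of it went other ways, Coro1a with 55.8, 38.8 and 60.9 and Cd74 with 157, 104 and 88.3. None of its 8 tested genes passed against PBS at either dose (limma; 1 at an unadjusted p under 0.05 at the low and 2 at the high dose). Over all genes 24.6% passed at the low and 12.2% at the high dose, so with 8 genes this count cannot show a lack of change. The 11 trophoblast markers measured of 15 summed to between 792 and 873, 919 and 1084, and 815 and 1326. Of 7 tested in that list, 1 rose and 1 fell at the low dose against PBS. Ascl2 fell and had the members' pattern (41.7 at 100 µM against 132 in PBS, log2 -1.54 ± 0.30, limma adjusted p 0.00202). Esx1 rose (63.1 against 19.7, 1.28 ± 0.27, adjusted p 0.00326). The 13 fibroblast markers summed to between 1340 and 1686, 1581 and 2005, and 1337 and 1734. Of 10 tested, 1 rose and 1 fell at the low dose against PBS. Thy1 fell and had the members' pattern (30.9 at 100 µM against 109 in PBS, -1.66 ± 0.29, limma adjusted p 9.5e-04). Fn1 rose (889 against 551, 0.68 ± 0.16, adjusted p 0.00554). Primitive endoderm markers (15 genes) summed to between 6693 and 10994 in PBS, 10054 and 11004 at 100 µM, and 1233 and 1374 at 5 mM. Of 14 tested, 10 fell against PBS at the high dose, beside 6.84% of all genes. At the low dose 5 of the 14 rose against PBS, beside 11.9% of all genes, and 3 rose without PBS replicate 2. Among the 5 were Foxa2 (234 against 36.4) and Gata6 (635 against 182). No marker on the array was at 0. The part of these marker shifts in the members' values was not tested. Trimmed means agreed between arrays to 0.0195%. The 3′ to 5′ ratio of the Actb control, a measure of RNA integrity, was 1.99 in PBS replicate 1, 0.871 in replicate 2 and 0.921 in replicate 3. It ran between 1.11 and 1.49 at 100 µM and between 1.05 and 1.49 at 5 mM. All arrays of both doses thus lay below PBS replicate 1 and above PBS replicates 2 and 3. A test of group means against PBS did not pass (exact permutation p 0.914 for the low and 0.946 for the high dose). With PBS arrays this far apart, it cannot show that integrity was alike. The brightest signal of an array averaged 8211 ± 891 in PBS, 19629 ± 4699 at 100 µM and 27223 ± 6768 at 5 mM (SD). The exact permutation p values against PBS are 0.0286 for the low and 0.0179 for the high dose, the smallest these numbers of arrays allow, and both 0.107 after adjustment over 15 comparisons. No member exceeded a signal of 2270.5. The median signal of an array averaged 70.3 at 100 µM against 61.6 in PBS (exact permutation p 0.0286, adjusted 0.107). The 95th percentile averaged 1547 at 5 mM against 1460 at 100 µM (exact permutation p 0.00794, adjusted 0.107). The part of these array differences in the members' values was not tested.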

How the data were processed

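RNA of 12 samples was measured on 1-colour Affymetrix MG_U74Av2 arrays. The deposited values are MAS5 signals per the submitters' processing notes, a linear intensity per probe set that weighs perfect-match against mismatch probes. The version of MAS5, its scaling target and its detection calls: not given in the sources used here. Means trimmed by 2% at each end differed by 0.0195% between arrays, within a tolerance of 10%, so the authors' scaling was kept. Groups and replicate numbers came from the sample titles. Arrays have no read depth; their number limits the precision.

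Signals were put on the scale log2(signal + 10.1), the offset being the 20th percentile of all values. Of 12422 probe sets outside the 66 controls, the 8695 with a mean above the 30th percentile were tested, and all 7 members were among them. One linear model with 3 group means covered the 12 arrays (limma 3.58.1, R 4.3.3, eBayes with a trend), two-sided, with Benjamini-Hochberg adjustment over all probe sets tested and a threshold of 0.05. Array measures were set against each other by exact permutation tests, two-sided. Steps were tested on simulated data. Names came from the platform annotation (10833 probe sets with 1 symbol, 396 with several, 1193 not listed), updated for 10817 through RefSeq of GRCm38.p6. The array values carry no genome build, so the coordinates are those of the RefSeq promoter windows only.

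Members and gene lists were chosen with earlier results of these data known. The naming rule took up to 4 genes per list and comparison past the threshold with the largest change, or 2 where none passed, and the 10 probe sets most like the members plus up to 2 per member. Of the list genes so taken, the text names some whose call held in all alternatives and some whose call did not. That selection was made after values were seen. Also made then was that of Rara, Rxra, Rxrb, Lta, Ltbr, Tcea1, Apex1 and Ung as partners or relatives. The same holds for Dppa4, Ptprc, Lyz2, Cd79a, Coro1a and Cd74 among markers. A gene with several probe sets stands by the brightest. Alternatives were quantile normalization, a common median, 4 times the offset, a floor in place of the offset, array weights, no variance trend, no filter, a filter at the 50th percentile, only the 2 groups compared, a replicate block and each array left out.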

Additional observations from a re-analysis of the deposited data

Results flagged for a closer look

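The signal of Rarg in low-dose replicate 4 was 102.884, against 27.4, 19.4 and 20.9 on the other 3 low-dose arrays. Its gap to the nearest array took up 0.904 of the group's range, above Dixon's critical value of 0.829 for 4 samples. On the log2 scale that share was 0.820, under the critical value. Chance singles out about 1 in 20 such groups, and this was 1 of 14 groups of the 7 genes examined. Without that array the low-dose change of Rarg against PBS was -2.52 in place of -2.07. On the log2 scale the lowest Adam19 array at the high dose, replicate 2, took up 0.717 of its group's range, against a critical value of 0.710, and on the signal scale 0.639.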

How the results depend on the processing

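The results were recomputed in 22 alternatives, 12 of which left out 1 array. The 7 genes were chosen by the sign of their low-dose or between-dose change, so for these changes only sizes are given. With 4 times the offset the low-dose changes were -0.96 for Calml4, -0.95 for Ltb, -1.78 for Adam19 and -1.50 for Rarg, and those between doses 1.70, 1.41, 1.52 and 1.45. With a floor they were -1.78 for Calml4 at the low dose, and 2.76 for Calml4 and 2.46 for Ltb between doses. With a common median the low-dose changes were -1.08 for Plac8, -2.12 for Tcea3 and -2.05 for Hmces. At the high dose against PBS, Plac8 passed in all 22 (1.28 to 1.57) and Ltb and Adam19 in none. Calml4 was lost with a replicate block (0.90, adjusted p 0.0527) and Hmces with the block (-0.53, 0.0622) and without a variance trend (-0.59, 0.0511), beside the left-out arrays given above. Probe sets that passed at the high dose numbered 1018, 1655 with array weights, 597 with a replicate block, and between 490 (without PBS replicate 2) and 1012 with 1 array left out (599 without PBS replicate 3). At the low dose they numbered 2087, and between 1425 and 2534. Between doses they numbered 2385, and between 1994 and 2553. No pairing by replicate number was seen. Deviations of same-numbered arrays correlated between -0.178 and 0.148, and those of differently numbered arrays between -0.162 and 0.177. Such correlations cannot exclude a pairing. With a common median 309 rose and 618 fell at the high dose, against 494 and 524 as deposited, and 1404 were higher and 872 lower at the high than at the low dose, against 1113 and 1272. Signs turned for Rarg at the high dose (between -0.32 and 0.095 with an array left out, above 0 without PBS replicate 2, PBS replicate 3 or high-dose replicate 3) and for Dppa5a, a pluripotency marker (0.66, and -0.50 after quantile normalization). They also turned for genes that did not pass: Rxrb at the high dose (between -0.0069 and 0.47 with an array left out) and the low dose (0.18 with array weights, between -0.21 and 0.26 with an array left out), Apex1 at the low dose (-0.15 with a common median, between -0.037 and 0.10 with an array left out) Rara at the low dose (between -0.60 and 0.28 with an array left out) and Dppa4 at the high dose (0.04, and -0.059 after quantile normalization and -0.033 with a common median). Of the other results for list genes, 2239 kept direction and side of the threshold, 176 fell below it and 20 passed it. Low-dose signals of Calml4, Ltb and Rarg lie near the offset, and how dim they are limits how large their drop can be measured. No detection call was used.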
